A study of Mus musculus with 9 samples.

Results

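The 8 genes described here, *Acat2*, *Hmgcs1*, *Mvk*, *Pmvk*, *Mvd*, *Idi1*, *Fdps* and *Ggps1*, encode enzymes that carry acetyl-CoA through mevalonate to farnesyl and geranylgeranyl diphosphate. They were chosen by gene symbol for their place in this pathway, with no threshold on a measured value, out of 43346 genes listed in the deposited table, but the pathway was picked with earlier results of these data known. Their fold changes and adjusted p-values therefore describe where each gene lay among all genes, and are no test of the pathway. Of the 8 genes, 8 passed the filter on low counts, which left 15024 genes to be tested. RNA-Seq was run on whole liver of C57/BL6 mice (C57BL/6J in the study's methods) aged 12 weeks, in 3 groups of 3 libraries. The baseline was the resection specimen of vehicle-treated mice at partial hepatectomy (0 h), and the other groups were the liver remnants of vehicle-treated mice and of NSC-treated mice 40 hours after hepatectomy. NSC (NSC-87877), a small molecule that inhibits the tyrosine phosphatases SHP2 and SHP1, was given by 2 intraperitoneal injections a day, each of 7.5 mg/kg. The first dose preceded surgery by 12 h in the sample records and by 1 day in the study's methods. No NSC-treated resection specimen was analysed here, so both 40 h groups were set against the same 3 baseline livers, and an effect of NSC before surgery cannot be told apart from one after it. The mice were male and assigned at random, and the study describes the libraries of a group as separate biological replicates, operated on in small cohorts that the labels do not name. The labels do not tell whether equal replicate numbers mark tissue of the same mouse.

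The mevalonate pathway makes the isoprenoid units of all sterols. Acetyl-CoA is joined to acetoacetyl-CoA and HMG-CoA, which is reduced to mevalonate. Mevalonate is then phosphorylated, decarboxylated and condensed to farnesyl diphosphate, which goes on to squalene and cholesterol, or to prenylated proteins, dolichol and ubiquinone. The liver is a main site of cholesterol synthesis, and most genes of the pathway are known targets of the transcription factor SREBP-2 (*Srebf2*), which works at sterol regulatory elements together with NF-Y at CCAAT boxes.

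The RefSeq promoter table (GRCm38.p6) held 7 of the 8 members, in 8 entries. In the 250 bases before each annotated start, both strands were searched for TCACNCCAC (a form of the sterol regulatory element) and for CCAAT, which do not overlap in these windows. The windows of 4 genes are shown with both motifs in capitals. *Hmgcs1* was the single member to hold TCACNCCAC. *Mvk* and *Mvd* had the lowest levels in NSC-treated mice relative to vehicle-treated mice. *Ggps1* had the log2 fold change nearest to 0 in that comparison. In this order the windows lie at chr13:119690101-119690350 (plus strand), chr5:114444019-114444268 (plus strand), chr8:122443423-122443672 (minus strand) and chr13:14063489-14063738 (minus strand), and each is written 5′ to 3′ on the strand of its gene.
Hmgcs1: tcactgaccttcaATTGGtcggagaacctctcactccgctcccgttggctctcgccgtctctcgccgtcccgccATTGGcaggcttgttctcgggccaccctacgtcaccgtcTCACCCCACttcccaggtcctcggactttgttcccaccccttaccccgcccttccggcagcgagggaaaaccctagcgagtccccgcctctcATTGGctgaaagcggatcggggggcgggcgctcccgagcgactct
Mvk: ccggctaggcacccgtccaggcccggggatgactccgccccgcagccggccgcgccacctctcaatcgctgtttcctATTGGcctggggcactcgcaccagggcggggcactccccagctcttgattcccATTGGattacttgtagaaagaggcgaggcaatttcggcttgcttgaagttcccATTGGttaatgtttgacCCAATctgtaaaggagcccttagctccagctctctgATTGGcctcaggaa
Mvd: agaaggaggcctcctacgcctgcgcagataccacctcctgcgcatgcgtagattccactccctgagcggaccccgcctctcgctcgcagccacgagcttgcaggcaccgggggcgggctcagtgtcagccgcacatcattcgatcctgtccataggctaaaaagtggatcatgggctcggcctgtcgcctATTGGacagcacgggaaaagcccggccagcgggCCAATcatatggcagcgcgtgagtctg
Ggps1: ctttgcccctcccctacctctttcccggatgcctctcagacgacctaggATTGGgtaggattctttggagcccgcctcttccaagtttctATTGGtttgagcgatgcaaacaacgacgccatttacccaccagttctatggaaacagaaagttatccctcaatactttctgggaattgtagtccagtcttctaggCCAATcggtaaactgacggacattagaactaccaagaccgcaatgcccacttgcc

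The capitals at 137 bases before the *Hmgcs1* start spell TCACCCCAC, a form held by 0.496% of all 32851 promoter entries, while TCACNCCAC in any spelling was held by 1.05%. A CCAAT box on either strand occurred in 6 of the 7 members and in 33.9% of all entries, and 10.1% of entries held 2 or more. *Mvk* had 5 such boxes, *Hmgcs1* and *Ggps1* had 3 each, *Mvd* and *Idi1* had 2 each, 1 *Pmvk* entry had 1 and *Acat2* had 0. The *Pmvk* window with the box (chr3:89454291-89454540) ends well before the deposited *Pmvk* start at 89459118. The other *Pmvk* window (chr3:89459321-89459570) lies inside the deposited gene. *Pmvk* is thus counted among members with a box only through an annotated start away from the deposited one. Searched likewise, the GC box GGGCGG was found in 5 members against 32.7% of entries, and the E box CACGTG in 0 members against 6.02%. These matches describe the letters of the windows only: *Ggps1* carries as many CCAAT boxes as *Hmgcs1*, and the members with and without boxes are both found among those that were lower after NSC.

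Total counts per library were 31187349 to 33943842 at baseline, 27956396 to 42887589 in vehicle remnants and 23997363 to 30201051 in NSC remnants. Levels between libraries are given as CPM (counts scaled to a common library size) adjusted by edgeR's TMM factors, and levels between genes as the deposited FPKM, which divide by gene length. Hepatocyte markers made up 116168 to 120325 CPM at baseline, 90489 to 127800 in vehicle remnants and 94510 to 112461 in NSC remnants, with 0 of 6 markers at 0 in any library. Summed macrophage markers (6 listed) were 102 to 152, 87.2 to 167 and 173 to 284 CPM in the same order, stellate cell markers (7) 99.2 to 109, 234 to 410 and 102 to 228, cholangiocyte markers (5) 37.8 to 40.6, 76.0 to 114 and 79.0 to 121, endothelial markers (6) 173 to 180, 110 to 177 and 127 to 226, and neutrophil markers (6, of which *Mpo* had 0 counts in 5 libraries and *Ly6g* in 2) 2.11 to 7.14, 8.01 to 15.8 and 10.9 to 17.5. Lymphocyte markers (6) were at 1.5 to 5.61, 0.332 to 1.55 and 1.29 to 1.89 CPM, with *Cd3e*, *Cd8a* and *Gzma* at 0 counts in 1 library each. Markers of a list did not all move together under these sums. From baseline to vehicle remnants, mean *Marco* went from 3.81 to 39.8 CPM and mean *Clec4f* from 69.6 to 47.7. Mean *Cyp2e1* went from 4491 to 2242 CPM, while *Alb* was at 92303 and 90830. The part of these cell types in the results below was not tested. In whole tissue, fewer cells of a type and less RNA per cell cannot be told apart.

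Per length, *Fdps* was the most abundant member in every group, with 493 ± 193 FPKM at baseline, 310 ± 67.0 in vehicle remnants and 210 ± 20.3 in NSC remnants (mean ± SD, n = 3). *Hmgcs1* came next with 160 ± 19.5, 213 ± 40.9 and 155 ± 38.6 FPKM, and these 2 genes together held 75.1% to 81.1% of the summed FPKM of the 8 members in each library. *Pmvk* (84.7 ± 6.80, 53.5 ± 18.9 and 31.9 ± 3.32 FPKM) and *Acat2* (52.8 ± 8.38, 33.0 ± 6.80 and 30.2 ± 1.65) followed in that order. In NSC remnants and in vehicle remnants the libraries of *Pmvk* and *Acat2* overlapped, as did those of *Fdps* and *Hmgcs1* in vehicle remnants. The lower part of the order changed: *Mvd* stood above *Idi1* and *Mvk* at baseline (23.1 ± 6.60, 13.8 ± 1.98 and 11.0 ± 2.90 FPKM), overlapped *Idi1* in vehicle remnants (20.4 ± 2.30 and 18.7 ± 5.90, with *Mvk* at 13.4 ± 2.26), and fell below *Idi1* to the level of *Mvk* in NSC remnants (6.55 ± 0.654, with *Idi1* at 17.5 ± 8.68 and *Mvk* at 6.53 ± 0.318). *Idi1* and *Mvk* overlapped at baseline, and *Mvd* and *Mvk* in NSC remnants. *Ggps1* was the scarcest member throughout, at 2.29 ± 0.416, 2.20 ± 0.497 and 2.599 ± 0.521 FPKM, with 121 to 226 counts per library behind each value.

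In vehicle-treated mice 40 hours after hepatectomy, the members lay on both sides of their baseline level. *Acat2* was the single member to pass the test (edgeR's quasi-likelihood test, Benjamini-Hochberg adjusted p under 0.05), and it fell. Among all tested genes 23.7% passed in this comparison and 11% passed as lower, so 1 of 8 is no more than the background. No member passed the study's added threshold of an absolute log2 fold change over 1.5, which 7.22% of genes did, and in 1 member all vehicle remnants lay below all baseline livers, a pattern shown by 22% of genes. The members' median log2 fold change was -0.13, beside 0.01 for all tested genes. It was negative in 5 members and positive in 3, and 49.0% of all tested genes were negative. The members' median stands between *Acat2*, *Fdps* and *Pmvk* at -0.67, -0.66 and -0.64 and *Mvk*, *Hmgcs1* and *Idi1* at 0.28, 0.42 and 0.43. *Acat2*, *Fdps* and *Pmvk* had an unadjusted p under 0.05, as did 5566 of the 15024 tested genes, so 3 of 8 is near the background.

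In NSC-treated mice 40 hours after hepatectomy, 5 of the 8 members were lower than at baseline and 0 were higher. *Acat2*, *Mvk*, *Pmvk*, *Mvd* and *Fdps* passed the test, where 34.7% of all tested genes passed and 16.5% passed as lower. *Pmvk* and *Mvd* also passed the fold threshold, which 8.13% of genes did. In the same 5 members every NSC remnant lay below every baseline liver, a pattern found in 23.1% of genes. The median log2 fold change was -0.91, beside 0.01 for all tested genes. *Hmgcs1*, *Idi1* and *Ggps1* did not pass, with log2 fold changes of -0.18, 0.19 and 0.04.

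Set directly against vehicle remnants, NSC remnants had a lower level of 1 member, *Mvd*, at an adjusted p under 0.05. Only 6 of the 15024 genes passed in this comparison, all of them lower (0.0399% in both counts), 3 of them past the fold threshold (0.02%), and *Mvd* had the smallest p of all. At an unadjusted p under 0.05 there were 5 members and 2929 genes. In 4 members, *Mvk*, *Pmvk*, *Mvd* and *Fdps*, every NSC remnant lay below every vehicle remnant, as in 12.2% of genes. The log2 fold change was negative in 7 of 8 members and in 48.5% of all tested genes, with a median of -0.65 beside 0.02 for all tested genes. Both comparisons with baseline share the same 3 livers, so the difference between 1 and 5 members passed is read from the direct comparison alone, where members other than *Mvd* did not pass.

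**Figure D1:**
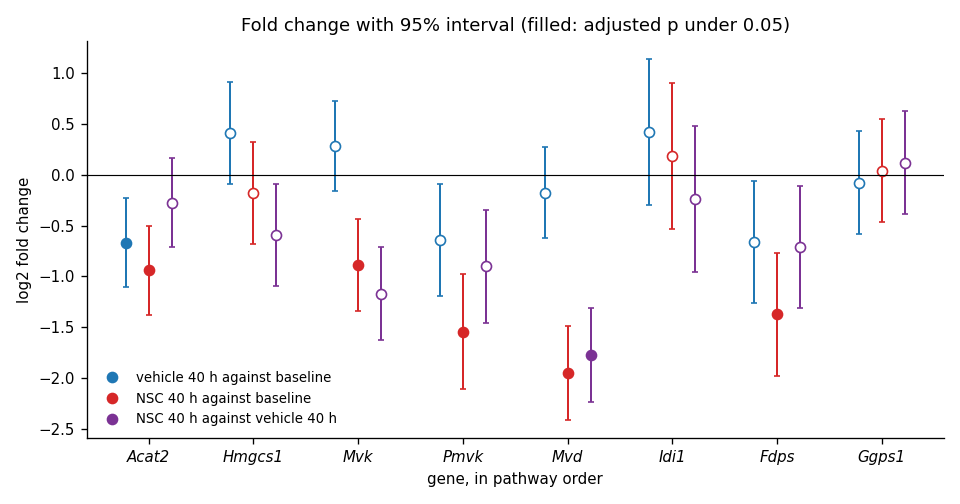
The log2 fold change of each member (vertical axis) with its 95% interval is drawn in pathway order for the 3 comparisons, with filled circles where the adjusted p was under 0.05. *Mvd* lies at -1.95 against baseline and -1.78 against vehicle in NSC remnants, while *Idi1* and *Ggps1* have intervals that span 0 in every comparison.

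At the entry to the pathway, *Acat2* (ENSMUSG00000023832, chr17:12942890-12960747, GRCm38 coordinates as deposited) encodes the cytosolic thiolase that makes acetoacetyl-CoA. Its level was 126, 165 and 127 CPM in the baseline livers, 64.0, 113 and 85.2 in the vehicle remnants and 65.7, 79.1 and 72.6 in the NSC remnants. Both 40 h groups lay below baseline without overlap, and they overlapped each other. On the log2 scale the difference was -0.67 ± 0.20 (SE, adjusted p = 0.0314) in vehicle remnants and -0.94 ± 0.20 (adjusted p = 0.00419) in NSC remnants against baseline, and -0.27 ± 0.20 (adjusted p = 0.470) between the treatments. The vehicle call rested on most libraries: it was lost without any 1 of the 3 baseline livers and without vehicle remnant 1 or 3 (adjusted p = 0.0529 to 0.126). *Acat2* reads are uncertain, because 1477 bases of its longest GENCODE M21 transcript match the neighbouring paralog *Acat3* at 97.7% identity. In reverse orientation 445 bases match *Tcp1* at 98.65% identity, which took 2504 to 4196 counts per library, and the strand setting of the counting is not given. *Acat3* itself took 3563 to 10198 counts per library and fell against baseline in NSC remnants (-0.79 ± 0.21, adjusted p = 0.0131). These 2 groups overlapped for *Acat3*, with baseline liver 2 at 172 CPM and NSC remnant 2 at 173.

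*Hmgcs1* (ENSMUSG00000093930, chr13:119690462-119708086) encodes the cytosolic HMG-CoA synthase. It stood at 505, 493 and 606 CPM at baseline, 532, 756 and 852 in vehicle remnants and 498, 580 and 337 in NSC remnants. All 3 groups overlapped, with the highest libraries among the vehicle remnants and the lowest among the NSC remnants. Its log2 fold changes of 0.42 ± 0.23 (adjusted p = 0.213), -0.18 ± 0.23 (adjusted p = 0.570) and -0.60 ± 0.23 (adjusted p = 0.194) in vehicle against baseline, NSC against baseline and NSC against vehicle did not pass, the last with a 95% interval of -1.10 to -0.09.

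The 3 enzymes that turn mevalonate into isopentenyl diphosphate had the most negative log2 fold changes of the members in NSC against vehicle remnants. *Mvk* (ENSMUSG00000041939, chr5:114444269-114460591), mevalonate kinase, had 21.3, 35.9 and 34.1 CPM at baseline, 36.3, 44.8 and 29.9 in vehicle remnants and 15.0, 17.8 and 16.6 in NSC remnants. The NSC remnants were the lowest 3 of the 9 libraries. Its log2 fold change was 0.28 ± 0.21 (adjusted p = 0.345) in vehicle and -0.89 ± 0.21 (adjusted p = 0.00659) in NSC remnants against baseline, and -1.17 ± 0.21 (adjusted p = 0.0847) between treatments.

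*Pmvk* (ENSMUSG00000027952, chr3:89459118-89469013), phosphomevalonate kinase, had 123, 133 and 143 CPM at baseline, 53.1, 125 and 77.2 in vehicle remnants and 43.4, 52.3 and 40.9 in NSC remnants. Vehicle remnants ranged from near the NSC level to the baseline level, whereas the NSC remnants were again the lowest 3 libraries. Log2 fold changes were -0.64 ± 0.25 (adjusted p = 0.0852), -1.55 ± 0.26 (adjusted p = 0.00118) and -0.90 ± 0.25 (adjusted p = 0.115) in the same order of comparisons. Without vehicle remnant 2, the highest of its group, the vehicle fall against baseline was -1.03 and passed (adjusted p = 0.00628).

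*Mvd* (ENSMUSG00000006517, chr8:122433596-122443422), mevalonate diphosphate decarboxylase, had 32.0, 39.1 and 55.0 CPM at baseline, 29.7, 43.4 and 38.5 in vehicle remnants and 11.0, 12.0 and 9.59 in NSC remnants. The highest NSC remnant was below the lowest of the other 6 libraries, and the raw counts behind it were 245 to 368 against 1014 to 1676. *Mvd* had a log2 fold change of -0.18 ± 0.20 (adjusted p = 0.576) in vehicle and -1.95 ± 0.21 (adjusted p = 9.19e-05) in NSC remnants against baseline. Against vehicle, *Mvd* was 3.43-fold lower in NSC remnants (log2 fold change -1.78 ± 0.21, adjusted p = 0.0341). That last call did not hold without vehicle remnant 2, NSC remnant 2 or NSC remnant 3 (log2 fold change -1.65, -1.85 and -1.70, adjusted p = 0.139, 0.135 and 0.154). *Mvd* lies inside the span of the readthrough gene *Gm20388* on the other strand, with 0 shared exon bases in GENCODE M21, and *Gm20388* was at -0.33 ± 0.14 between treatments (adjusted p = 0.234).

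*Idi1* (ENSMUSG00000058258, chr13:8885501-8892451) encodes the isomerase that converts isopentenyl to dimethylallyl diphosphate. It had 46.8, 58.5 and 45.3 CPM at baseline, 50.7, 59.4 and 92.2 in vehicle remnants and 86.8, 48.8 and 35.9 in NSC remnants. Its spread was the widest of the members within NSC remnants, with a coefficient of variation of 46.3%, and the groups overlapped. No comparison passed (log2 fold change 0.43 ± 0.32, 0.19 ± 0.32 and -0.24 ± 0.32, adjusted p = 0.373, 0.682 and 0.713). A processed pseudogene, *Gm13502*, matches 684 bases of *Idi1* at 100% identity and held 110 to 416 counts per library, or 13.6% of the *Idi1* counts over all libraries, so part of its reads may be placed elsewhere.

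*Fdps* (ENSMUSG00000059743, chr3:89093592-89101967) encodes farnesyl diphosphate synthase, the target of bisphosphonate drugs. It had 458, 917 and 526 CPM at baseline, 274, 491 and 437 in vehicle remnants and 262, 245 and 227 in NSC remnants. Baseline liver 2 stood far above the others, vehicle remnants overlapped baseline, and all NSC remnants lay below the 6 other libraries. The log2 fold change was -0.66 ± 0.27 (adjusted p = 0.0999), -1.37 ± 0.28 (adjusted p = 0.00318) and -0.71 ± 0.27 (adjusted p = 0.193). Without baseline liver 2 or any other single library, the NSC call against baseline held, with log2 fold changes of -1.56 to -1.01. The *Fdps*-like pseudogenes, *Gm3571*, *Gm5873* and *Gm8163*, match 1062 to 1066 bases at 96.1% to 98.9% identity and carried 5.52%, 1.28% and 0.215% as many counts as *Fdps*.

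*Ggps1* (ENSMUSG00000021302, chr13:14052449-14063401) encodes geranylgeranyl diphosphate synthase, whose product anchors Rab and other small GTPases in membranes. It had 5.65, 6.63 and 4.55 CPM at baseline, 5.16, 4.38 and 6.46 in vehicle remnants and 6.78, 5.81 and 4.74 in NSC remnants. The groups covered the same range. Log2 fold changes were -0.08 ± 0.23 (adjusted p = 0.844), 0.04 ± 0.23 (adjusted p = 0.905) and 0.12 ± 0.23 (adjusted p = 0.811), with 95% intervals of -0.59 to 0.43, -0.47 to 0.55 and -0.39 to 0.63, so changes of those sizes could not be seen at 3 livers per group. At its 5′ end 257 exon bases overlap *Arid4b* on the other strand, and the strand setting of the counting is not given in the sources used here.

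**Figure D2:**
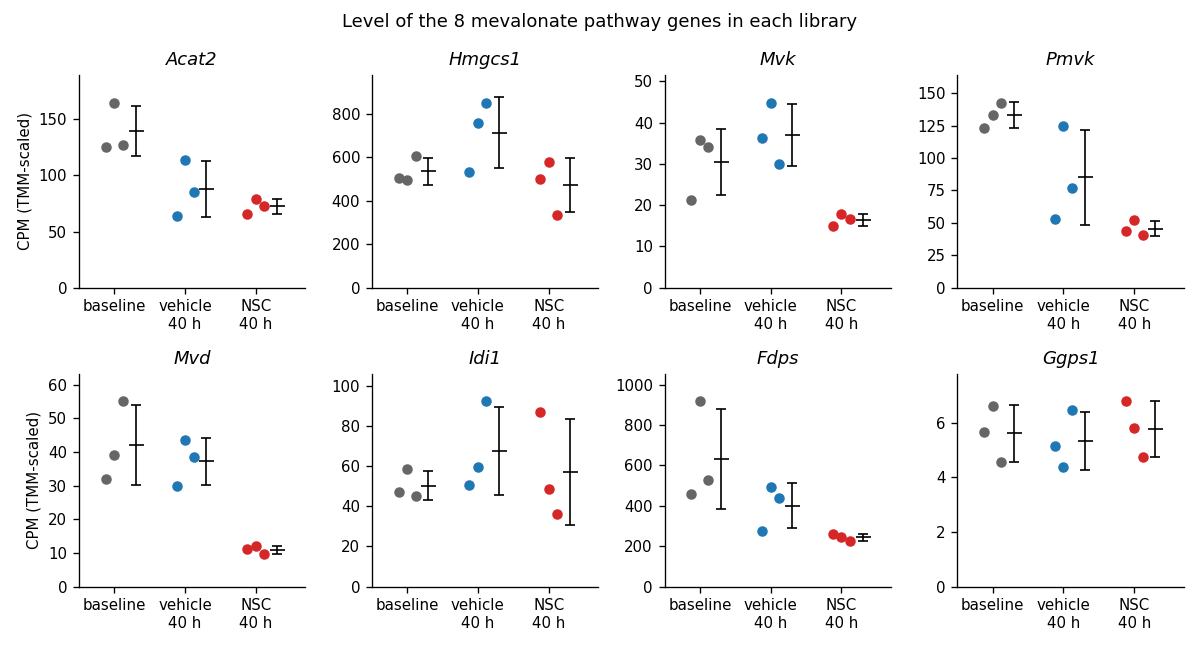
Each panel shows 1 member in TMM-scaled CPM (vertical axis, from 0) for the 3 baseline livers, 3 vehicle remnants and 3 NSC remnants, with the mean and SD in black. The NSC remnants of *Mvd* lie between 9.59 and 12.0 CPM, below every other library, whereas the groups of *Ggps1* cover the same range.

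The members did not vary as 1 block. Over the 9 libraries, which share group differences and normalization, 22 of the 28 pairs of members had a positive Pearson correlation of log2 CPM, with a median of 0.46. *Acat2*, *Pmvk* and *Fdps* went together (r = 0.93 for *Acat2* and *Pmvk*, 0.92 for *Acat2* and *Fdps*, 0.90 for *Pmvk* and *Fdps*), and so did *Mvk* and *Mvd* (r = 0.88). *Idi1* and *Ggps1* correlated with each other (r = 0.65), and *Ggps1* had r = -0.0018 with the mean of the other 7. With the group means removed, 23 of 28 pairs were positive, and *Acat2* with *Pmvk* (r = 0.86), *Acat2* with *Fdps* (0.83) and *Idi1* with *Ggps1* (0.81) stood highest. No share of positive pairs among other genes is given here, so both counts describe the members only. The 5 genes outside the pathway most like the members' mean profile over the 9 libraries were *Lime1* (r = 0.97), *Fdft1* (0.95), *Gm22442* (0.95), *Ralgps1* (0.95) and *8430419L09Rik* (0.94). *Fdft1*, squalene synthase, takes farnesyl diphosphate into sterols. For the members whose most alike gene is named here, it was *Acss2* for *Acat2* (r = 0.99), *Lrrc48* for *Hmgcs1* (0.94), *Pigs* for *Mvk* (0.99), *Mtg2* for *Mvd* (0.98), *Gm5828* for *Idi1* (0.95), *Zscan29* for *Ggps1* (0.93) and, for *Fdps*, its pseudogene *Gm3571* (0.99). *Gm3571* matches 1062 bases of *Fdps* at 98.9% identity, and whether its counts came from *Fdps* reads was not tested.

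GC content moved with the treatment comparison across all genes. Over the 99.2% of tested genes whose longest transcript had a GC value, the log2 fold change of NSC against vehicle had a Spearman correlation of -0.56 with GC content, against -0.41 for NSC and -0.13 for vehicle against baseline. The members spread over this range: *Mvd*, *Pmvk* and *Mvk* had 59.0%, 57.0% and 56.3% GC, above 94.2%, 87.4% and 84.8% of tested genes, while *Fdps* (50.6%) and *Acat2* (49.6%) were in the middle and *Hmgcs1* (43.1%), *Idi1* (41.9%) and *Ggps1* (40.1%) were low. The 3 members with the most negative log2 fold changes in NSC against vehicle were the 3 with the highest GC content. Within its own decile of genes by GC, *Mvd* lay at percentile 0.805 of the log2 fold changes of NSC against vehicle, *Hmgcs1* at 2.48, *Mvk* at 4.30, *Fdps* at 4.90, *Idi1* at 6.58, *Pmvk* at 7.05, *Acat2* at 16.7 and *Ggps1* at 17.2. All 8 were thus in the lower part of their decile, given as a description.

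With a GC correction in each library, the NSC remnants kept the same number of members lower than baseline: *Mvd* -1.46 (adjusted p = 0.000747), *Fdps* -1.32 (0.00599), *Pmvk* -1.19 (0.00599), *Acat2* -0.94 (0.00605) and *Mvk* -0.57 (0.0324). *Idi1* and *Ggps1* then turned from positive to negative against baseline (-0.29, adjusted p = 0.474, and -0.49, adjusted p = 0.0797). Against vehicle, 8 of 8 members were negative with a median of -0.63, but none passed: *Mvd* was at -1.43 (adjusted p = 0.195), and 0 of all tested genes passed. How much of the GC trend came from the libraries and how much from the livers was not tested.

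**Figure D3:**
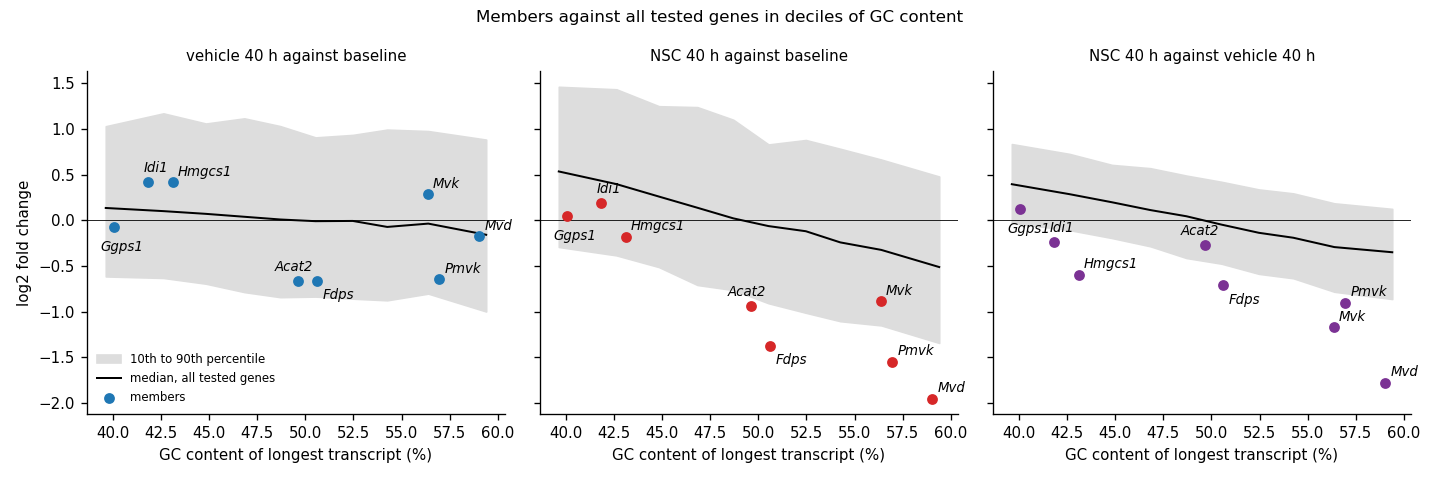
The members' log2 fold changes (points) are plotted against the GC content of the longest transcript (%) for the 3 comparisons, over the median (line) and the 10th to 90th percentile (band) of all tested genes in deciles of GC content. In NSC against vehicle the line falls from 0.40 in the lowest decile to -0.35 in the highest, and 6 members lie below the band.

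As background for the gene lists below, 1914 of the 15024 tested genes were higher and 1650 lower (11%) in vehicle remnants against baseline. In NSC remnants against baseline, 2728 were higher and 2479 lower (16.5%). Downstream of farnesyl diphosphate, the squalene to cholesterol enzymes (13 genes tested) had 0 lower and 2 higher in vehicle remnants against baseline. They had 5 lower and 1 higher in NSC remnants against baseline. Between treatments 0 passed the test, and 11 of 13 were negative, beside 48.5% of all tested genes. Their medians were -0.07, -0.34 and -0.40, against -0.13, -0.91 and -0.65 for the members. *Lbr*, a sterol reductase of the nuclear envelope, rose in vehicle remnants (0.75, adjusted p = 0.0189). In NSC remnants against baseline, *Fdft1* (-0.84, adjusted p = 0.00279), lanosterol synthase *Lss* (-1.33, adjusted p = 0.00357) and *Dhcr7* (-1.01, adjusted p = 0.00524) fell and *Lbr* rose (0.81, adjusted p = 0.00885). *Fdft1*, at 236 ± 15.4, 198 ± 28.8 and 132 ± 19.7 CPM in the 3 groups, was at -0.58 between treatments (adjusted p = 0.117).

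Of 14 genes of SREBP control and sterol uptake, 1 was lower and 1 higher in vehicle remnants (the lower was *Npc1* at -0.69, adjusted p = 0.0329) and 5 were lower and 1 higher in NSC remnants against baseline. The SREBP escort *Scap* (-1.13, adjusted p = 0.000862), *Insig1* (-1.02, adjusted p = 0.00677) and *Srebf2* (-0.52, adjusted p = 0.0289) fell, and the site-2 protease *Mbtps2* rose (0.78, adjusted p = 0.0156). *Srebf2* was at 60.6 ± 6.79, 76.6 ± 13.5 and 42.3 ± 5.52 CPM in baseline, vehicle and NSC livers, with a log2 fold change of -0.86 between treatments (adjusted p = 0.0849). *Insig1* was at -0.76 between treatments (adjusted p = 0.137).

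Of 20 genes that use isoprenoids (prenyltransferases, ubiquinone and dolichol synthesis and the processing of prenylated proteins), 5 rose and 1 fell in vehicle remnants and 6 rose and 3 fell in NSC remnants against baseline, with medians of 0.10 and 0.20. The falls were no more than the background of 11% and 16.5% lower among all tested genes. The rises, 5 and 6 of 20, stand beside 1914 and 2728 of all 15024 tested genes higher in the same comparisons. The protease *Zmpste24* (0.50, adjusted p = 0.0214) and *Dhdds* (0.45, adjusted p = 0.0264) rose in vehicle remnants, and *Zmpste24* (0.89, adjusted p = 0.000688), *Pdss1* (1.30, adjusted p = 0.00287) and *Nus1* (0.72, adjusted p = 0.00437) in NSC remnants. *Rabggta*, a subunit of the Rab geranylgeranyl transferase, fell in both (-0.64, adjusted p = 0.0372, and -1.02, adjusted p = 0.00268), and *Trit1* (-0.42, adjusted p = 0.0472) and *Icmt* (-0.35, adjusted p = 0.0497) fell in NSC remnants, where 1 to 2 genes of this list in place of 3 were lower with any 1 library left out. None of the 20 passed between treatments.

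Upstream, the genes listed under acetyl-CoA supply were lower in both 40 h groups: 6 of 7 in vehicle and 5 of 7 in NSC remnants against baseline, with medians of -1.02 and -1.03, and a median of 0.06 between treatments. Some of them, such as *Me1*, do not make acetyl-CoA themselves. Malic enzyme *Me1* (-2.33, adjusted p = 9.04e-05), *Dlat* (-1.02, adjusted p = 0.00356) and ATP citrate lyase *Acly* (-1.32, adjusted p = 0.00912) had the smallest adjusted p in vehicle remnants, and *Me1* (-1.88, adjusted p = 0.000189), *Acly* (-2.11, adjusted p = 0.000586) and the citrate carrier *Slc25a1* (-1.03, adjusted p = 0.00137) in NSC remnants. The acetyl-CoA synthetase *Acss2*, the gene most alike to *Acat2*, had log2 fold changes of -2.14 (adjusted p = 0.0157) and -2.86 (adjusted p = 0.00346), the latter the largest fall of this list in NSC remnants. Of 12 fatty acid synthesis genes, 5 were lower in vehicle remnants (*Scd1* -3.35, adjusted p = 0.00256, *Scd2* -1.16, adjusted p = 0.00567, *Thrsp* -4.46, adjusted p = 0.0250) and 7 in NSC remnants (*Scd1* -3.71, adjusted p = 0.00113, *Scd2* -1.41, adjusted p = 0.00137, *Acacb* -3.03, adjusted p = 0.00731), with medians of -1.06, -1.28 and, between treatments, -0.24. The baseline livers differed widely in *Thrsp*, at 736 ± 907 CPM (mean ± SD), against 33.4 ± 21.9 in vehicle remnants. With 1 library left out, 3 to 7 acetyl-CoA genes (3 without vehicle remnant 3) and 2 to 7 fatty acid genes (2 without vehicle remnant 1 or 3, 3 without baseline liver 3 or NSC remnant 2) were lower in vehicle remnants.

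Of 5 ketogenic genes and paralogs, 2 fell in vehicle remnants, among them *Acat1* (-0.72, adjusted p = 0.0270), and 2 in NSC remnants, among them *Acat3*. *Acat1*, the mitochondrial thiolase, was at -0.45 in NSC remnants against baseline (adjusted p = 0.120). Of 7 genes of LXR signalling (the oxysterol receptors *Nr1h2* and *Nr1h3* and 5 targets), 3 fell and 1 rose in vehicle remnants and 4, the receptor *Nr1h2* among them, fell and 1 rose in NSC remnants. The sterol exporters *Abcg5* (-1.16, adjusted p = 0.0225) and *Abcg8* (-1.54, adjusted p = 0.0241) and *Lpcat3* (-0.82, adjusted p = 0.00639) fell in vehicle remnants, and *Lpcat3* (-0.90, adjusted p = 0.00268), *Nr1h2* (-0.91, adjusted p = 0.00342) and *Abcg8* (-1.96, adjusted p = 0.00633) in NSC remnants, while *Abcg1* rose in both (0.89, adjusted p = 0.0182, and 1.32, adjusted p = 0.00160). No gene of these 7 lists passed between treatments by edgeR's test. By DESeq2, which passed 756 genes in all, 4 squalene to cholesterol genes, 5 of SREBP control and uptake, 1 user of isoprenoids and 1 LXR gene were lower in NSC than in vehicle remnants. By edgeR with 1 library left out, 0 to 6 squalene to cholesterol genes (6 without NSC remnant 1) and 0 to 2 of SREBP control and uptake (2 without NSC remnant 1 or vehicle remnant 3) were lower.

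**Figure D4:**
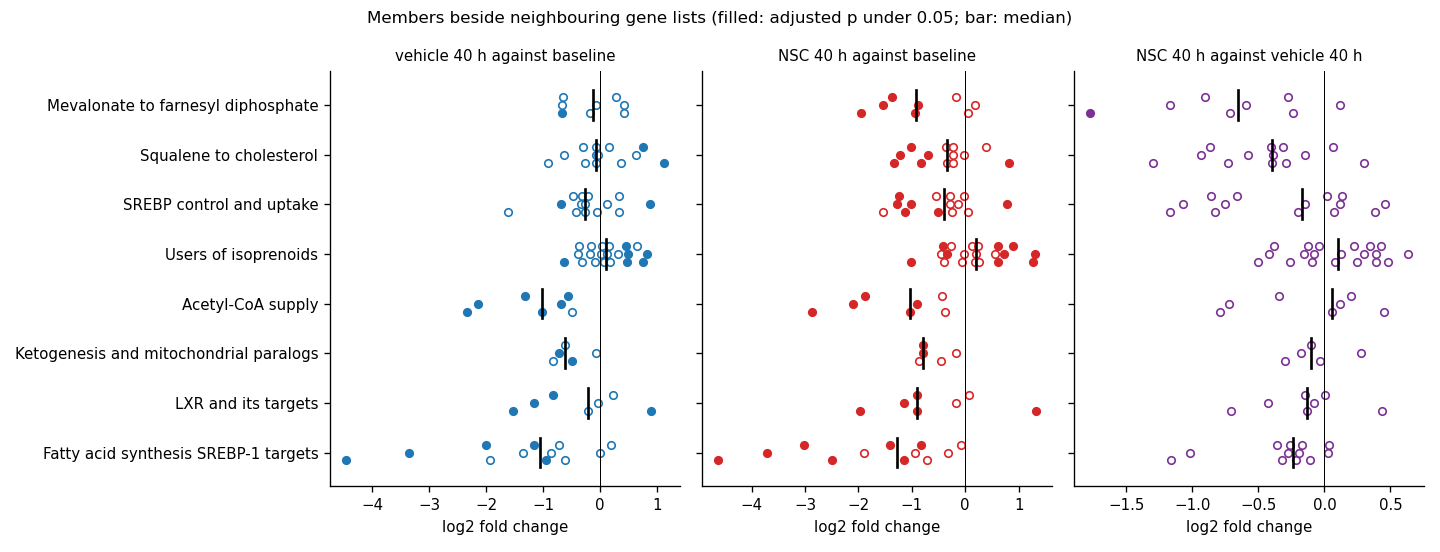
Every circle is 1 gene of the named list and its log2 fold change (horizontal axis) in the 3 comparisons, filled where the adjusted p was under 0.05, with the list's median as a bar. The members' median moves from -0.13 to -0.91 between the left and the middle panel, and *Mvd* is the single filled circle in the right panel.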

How the data were processed

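Whole-liver RNA-Seq of 9 libraries in 3 groups of 3 was used. Per the labels, reads were mapped with STAR 2.6.1 and assigned to genes by featureCounts of Subread 1.5.1. The deposited counts are raw whole numbers, neither pooled nor normalized by the authors. The deposited FPKM values scale those counts by the length of the gene and the total of the library: recomputed from the counts, with the listed length plus 1, they differed by at most 4.96e-10 of their value above 1 FPKM. The labels name a human build, whereas the table holds mouse Ensembl identifiers with GRCm38 coordinates. Library preparation selected polyadenylated RNA and kept its strand.

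The tests used edgeR 4.0.16 under R 4.3.3 (TMM factors, filterByExpr, robust quasi-likelihood fit of all 9 libraries with the group as the single term), and p-values were adjusted by the Benjamini-Hochberg method over 15024 genes. A gene passed the test at an adjusted p under 0.05. The SE is the absolute log2 fold change divided by the square root of F. Alternatives were DESeq2 1.42.0, other scalings and filters, the replicate number as a block, a GC correction (loess, span 0.5, GC of the longest GENCODE M21 transcript), other thresholds and each library left out in turn. Between 3 and 3 livers an exact permutation test cannot go below 0.1 (two-sided), so none is given for single genes. Similar transcripts were sought with BLAST 2.17.0 (at least 90% identity over 200 bases), and motif searches and plots used pandas 2.3.3, matplotlib 3.10.9 and Python 3.11.15.

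The members, gene lists and tests were chosen with earlier results of these data known. The text names all members, the 3 genes per direction and list with the smallest adjusted p, *Acat1*, *Fdft1*, *Srebf2* and *Insig1*, and the 5 genes whose log2 CPM (prior count 2) correlated best with the members' mean z-score, besides the gene most alike to each member. Some genes that this rule names are not reported here, but they are part of the counts and medians of their lists. Depth per library was 23997363 to 42887589 counts. Precision is set by 3 livers per group. Protein sequences and the *Fdps* promoter were not analysed here.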

Additional observations from a re-analysis of the deposited data

Results flagged for a closer look

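*Mvd* is listed because the change from baseline to 40 h differed between the treatments: the contrast of NSC against vehicle remnants, which is the difference of both changes from the shared baseline, gave a log2 fold change of -1.78 (edgeR's quasi-likelihood test, adjusted p = 0.0341), lower in 3 of 3 NSC livers. *Mvd* has a higher GC content than 94.2% of tested genes, and after GC correction the value was -1.43 (adjusted p = 0.195). What part GC content has in the difference was not tested. No outlier test was run within groups of 3 libraries. With single libraries left out, the *Mvd* call was lost without vehicle remnant 2, NSC remnant 2 or NSC remnant 3 (adjusted p = 0.135 to 0.154).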

How the results depend on the processing

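In all 18 alternatives the median log2 fold change of the members kept its sign. It ran from -0.21 to -0.04 in vehicle against baseline, -1.05 to -0.78 in NSC against baseline and -0.85 to -0.51 in NSC against vehicle. Each median moved by less than 0.206, the pooled SD within groups of a score per library. The score is the median over members of log2 CPM less the gene's mean. That SD describes single livers and is not the error of a difference between groups. In vehicle against baseline, where 1 member passed, 2 passed by DESeq2, with library size alone and with a replicate block (*Acat2* and *Pmvk* each time), 0 with the fold threshold or an adjusted p under 0.01, and 0 to 2 with 1 library left out. In NSC against baseline, the same 5 members passed under every alternative (5 to 5 with 1 library left out) except the fold threshold, with 2. In NSC against vehicle, where *Mvd* passed, 3 passed by DESeq2 (*Mvk* and *Pmvk* besides), 2 with every gene of at least 1 count (*Mvk* besides), 0 with an adjusted p under 0.01, with GC correction or with GC correction and the replicate block, and 0 to 2 with 1 library left out. The cause was not tested. Over all genes, the 6 called in NSC against vehicle became 756 by DESeq2, 221 with every gene of at least 1 count, 11 with the replicate block, 1 with library size alone, 1 with GC correction and the block, 0 with GC correction alone, and 0 to 994 with 1 library left out (994 without NSC remnant 1). For vehicle against baseline, 3564 became 2285 to 4538 with 1 library left out.

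Directions turned where values were near 0. *Ggps1* went to -0.49 with GC correction and -0.49 with GC correction and the replicate block in NSC against baseline, and to -0.24 and -0.25 in NSC against vehicle. *Idi1* went to -0.29 and -0.31 in NSC against baseline. With 1 library left out, *Ggps1* spanned -0.231 to 0.0605, -0.0886 to 0.179 and -0.0137 to 0.276 in the 3 comparisons, *Mvd* -0.339 to 0.0709 in vehicle against baseline, *Idi1* -0.245 to 0.435 in NSC against baseline and -0.673 to 0.0515 in NSC against vehicle, and *Hmgcs1* -0.355 to 0.0131 in NSC against baseline. The labels do not say that replicate numbers pair the livers. Same-numbered libraries of different groups had residual correlations of -0.048 to 0.13, with 1 of 9 above 0.1, and the 18 pairs with other numbers had -0.12 to 0.066, so the block is given as a check on calls only. It changed no member's call besides *Pmvk* (-0.72, adjusted p = 0.0277, in vehicle against baseline). Of the gene lists, fatty acid genes lower in vehicle remnants went from 5 to 2 with every gene of at least 1 count, 3 with only the groups compared and 8 with the replicate block, and users of isoprenoids lower in NSC remnants against baseline from 3 to 1 in each of these. With 1 library left out, ketogenic genes lower went from 2 to between 0 and 4 in vehicle and between 1 and 4 in NSC remnants. Other list counts of 0 to 3 lower genes in vehicle remnants moved by 1 to 3 genes under some alternatives. Of the 5 genes most like the members' profile, 2 stayed with Spearman correlation and 4 with log2(FPKM + 1). The order of the members by length-scaled level was the same with TMM CPM per kilobase. Both measures scale the same counts by gene length and differ by a factor per library, so this order could hardly change. Depth limits *Ggps1* most, at 121 to 226 counts per library.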
